A study of Mus musculus with 2 samples.

Results

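T cells of the mouse lung were chosen by their own transcripts from 2 scRNA-Seq libraries, as the cell barcodes with at least 3 unique molecular identifiers (UMIs, each a counted RNA molecule) summed over Cd3d, Cd3e, Cd3g and Trac, the genes of the CD3 chains and of the constant part of the T cell receptor alpha chain. A barcode also needed 200 genes or more, 800 UMIs or more, at most 20% of them mitochondrial, under 2 UMIs summed over the natural killer (NK) cell genes Ncr1, Klrb1c and Klre1, and no UMI of the B cell genes Cd79a and Ms4a1. The rule took 345 of the 23930 cells that passed the gene, mitochondrial and UMI filters, out of 25094 barcodes deposited. The Cebpa fl/fl library gave 26 T cells among 10906 cells, and 319 came from 13024 CebpaΔSftpc cells.

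The study deleted Cebpa, the gene of the transcription factor C/EBPα, in alveolar type 2 (AT2) cells, the surfactant-secreting epithelial cells of the alveolus, and profiled whole lung digests. The library labelled Cebpa FF came from Cebpa fl/fl mice, which carried floxed Cebpa alleles. The library labelled Cebpa KO came from CebpaΔSftpc mice, which carried the same floxed alleles and a tamoxifen-activated Cre recombinase driven by Sftpc, a gene that marks AT2 cells. Tamoxifen was injected at 75 mg/kg on 5 successive days, a further round of weekly injections was given in experiments of this length, and lungs were taken 26 weeks after the first injection. Mice of the study were 3 months old unless stated otherwise, with no other age given for these, their genetic background was mixed, and the labels mention a FACS sorting method for the dissociation without naming a gate, while the methods of the study describe whole-lung suspensions and name no sort for them. Lungs of 3 mice per genotype were used per the study, but no barcode carries the mouse it came from, so each genotype is 1 library and nothing below is a test between genotypes. The intervals are 95% intervals for counting error only, exact binomial for shares and exact Poisson or conditional binomial for levels and their ratios, and they do not cover differences between mice. T cells do not express Sftpc, so the Cre was directed to other cells. Cebpa itself was read in few T cells, 3 of 26 from Cebpa fl/fl lungs and 38 of 319 from CebpaΔSftpc lungs. Among cells without a UMI of the leukocyte gene Ptprc that held at least 20 UMIs of AT2 genes other than Sftpc, a Cebpa UMI was held by 408 of 481 from Cebpa fl/fl lungs and 80 of 283 from CebpaΔSftpc lungs. Their median depths were 21017 and 1713 UMIs, and the level of Cebpa was 150 and 97.2 CPM (counts of a gene scaled to a common total of UMIs), so the Cebpa counts differed in the direction of the labels but at unequal depth. This cut of AT2-gene-rich cells was chosen after values were seen, and whether the 3′ reads lie in the floxed part of Cebpa was not given in the sources used here.

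T cells recognise fragments of proteins shown on other cells through a T cell receptor, whose signal is passed on by the CD3 chains. Those with the co-receptor CD4 mostly direct other immune cells, and those with CD8 mostly kill infected or altered cells. Naive T cells recirculate between blood and lymph nodes with the help of the chemokine receptor CCR7, whereas effector and memory T cells carry granzymes and chemokines such as CCL5 and can stay in tissues such as the lung, and regulatory T cells with FOXP3 restrain the others.

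Of the 4 genes that chose the cells, 3 lie close together on chromosome 9 of the mouse genome (GRCm38), with Cd3g at chr9:44969572-44980431 on the minus strand, Cd3d at chr9:44981786-44987339 on the plus strand and Cd3e at chr9:44998740-45009627 on the minus strand. Trac lies at chr14:54220521-54224206. The starts of Cd3d and Cd3g are 1355 bases apart and point away from each other. Their promoters are shown because the count of these transcripts defined the T cells: 250 bases before to 50 bases after the start, from RefSeq on GRCm38.p6, 5′ to 3′ on the strand of the gene (Cd3d at chr9:44981536-44981835, Cd3g at chr9:44980382-44980681, Cd3e at chr9:45009562-45009861). Capitals mark matches, on either strand, to the letters of 4 short motifs of T cell transcription factor families, RUNX (TGTGGT), ETS (AGGAAG), TCF/LEF (CTTTGA) and T-box (AGGTGTGA), which were picked after the sequences had been seen.
Cd3d: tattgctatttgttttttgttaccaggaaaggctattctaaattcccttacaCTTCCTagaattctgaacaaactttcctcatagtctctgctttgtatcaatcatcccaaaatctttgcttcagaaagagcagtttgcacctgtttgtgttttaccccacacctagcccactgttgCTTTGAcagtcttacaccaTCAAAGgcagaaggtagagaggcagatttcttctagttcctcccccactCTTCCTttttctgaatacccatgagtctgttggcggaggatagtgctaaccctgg
Cd3g: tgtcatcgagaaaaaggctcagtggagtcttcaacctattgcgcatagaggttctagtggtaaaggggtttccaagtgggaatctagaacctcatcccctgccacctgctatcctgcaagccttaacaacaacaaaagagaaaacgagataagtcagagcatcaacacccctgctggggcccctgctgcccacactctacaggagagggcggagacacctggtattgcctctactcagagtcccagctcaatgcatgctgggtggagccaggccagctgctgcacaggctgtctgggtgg
Cd3e: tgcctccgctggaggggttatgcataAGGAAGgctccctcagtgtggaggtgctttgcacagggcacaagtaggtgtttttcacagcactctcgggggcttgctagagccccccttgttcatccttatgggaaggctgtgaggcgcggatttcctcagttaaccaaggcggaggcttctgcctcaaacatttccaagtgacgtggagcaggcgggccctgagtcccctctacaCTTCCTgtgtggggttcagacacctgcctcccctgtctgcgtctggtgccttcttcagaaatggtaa
The Cd3d window held an ETS match 198 bases before the start, TCF/LEF matches at 73 and 54, and a further ETS match at 5. The Cd3e window held ETS matches at 224 and 17 bases before the start, and the Cd3g window held none of these letters. No match overlapped another, and 35.4% of all 32851 mouse promoters of the same length held the ETS letters, 16% the TCF/LEF letters, 16.8% the RUNX letters and 1.28% the T-box letters.

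The T cells of both libraries had like median depth but unlike spread. Gate UMIs per T cell were 6 at the lowest, 19.5 at the median and 77 at the highest in the Cebpa fl/fl library, and 3, 16 and 60 in the CebpaΔSftpc library. Total UMIs per T cell had medians of 7814 (2203 to 24705) and 7795 (851 to 40543) with lower quartiles of 5998.5 and 3965, and the median number of genes was 2398.5 and 2404. Over all cells kept, by contrast, Cebpa fl/fl cells had a median of 5057.5 UMIs and CebpaΔSftpc cells one of 2708, with 69200420 and 64697396 UMIs deposited in all. As a description of the rule, Cd3d stood at 731 and 656 CPM, Cd3g at 809 and 617, Cd3e at 589 and 384 and Trac at 535 and 298, with Cd3d within counting error. The libraries shared 45 barcodes, none of which was a T cell in both.

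**Figure D1:**
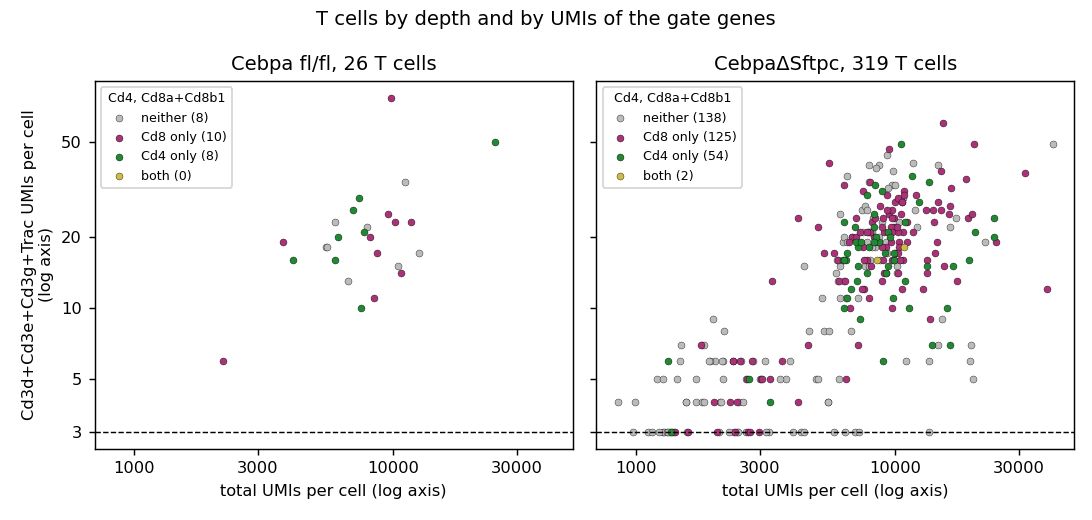
Each point is 1 T cell, with its total UMIs on the horizontal log axis and its Cd3d, Cd3e, Cd3g and Trac UMIs on the vertical log axis, coloured by whether it held UMIs of Cd4, of Cd8a or Cd8b1, of both or of neither. The dashed line is the gate of 3 UMIs, and 112 of the 319 CebpaΔSftpc cells but 1 of the 26 Cebpa fl/fl cells lie under 10 gate UMIs.

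T cell genes that the rule did not use were present in most of the cells. Trbc2, the constant part of a T cell receptor beta chain, had a UMI in 26 of 26 Cebpa fl/fl T cells and in 293 of 319 CebpaΔSftpc T cells. In endothelial cells, which should lack it, the share was 0.139% and 2.55% at median depths of 4916.5 and 3151 UMIs. Lck, the kinase that starts signalling at the CD3 chains, was seen in 80.8% and 67.7% of T cells against 0.214% and 0.754% of endothelial cells. Il7r, the interleukin-7 receptor on which naive and memory T cells depend, was seen in 76.9% and 79.0%, against 0.151% and 1.76%. All 18 of the listed T cell genes outside the gate were detected in both libraries, and their summed level was 6127 CPM and 4433 CPM. In NK cells the same list summed to 2144 and 1612 CPM with Trbc1 the most abundant, in B cells to 327 and 241 and in endothelial cells to 52.4 and 67.1 CPM. The list was thus highest in the cells that the rule took as T cells, in both libraries.

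The edge of the gate was filled in the CebpaΔSftpc library and empty in the Cebpa fl/fl library. Of the CebpaΔSftpc T cells, 73 held 3 to 5 gate UMIs, 39 held 6 to 9 and 207 held 10 or more, with median depths of 2441, 3151 and 9170 UMIs. Trbc2 was seen in 71.2%, 89.7% and 99.5% of these bands and Lck in 28.8%, 33.3% and 87.9%. Just inside the gate, at exactly 3 UMIs, there were 36 CebpaΔSftpc cells, 63.9% of them with Trbc2. Just outside it, at 2 UMIs, there were 81 with Trbc2 in 46.9%, and 3 Cebpa fl/fl cells with none. The NK rule left out 46 CebpaΔSftpc cells and 1 Cebpa fl/fl cell, the B cell rule 32 and 2, and the minimum of 800 UMIs 1 and 0.

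T cells made up a larger share of the CebpaΔSftpc library. They were 0.238% of Cebpa fl/fl cells (95% interval 0.156 to 0.349) and 2.45% of CebpaΔSftpc cells (2.19 to 2.73), a 10.3-fold difference or 3.36 on the log2 scale (2.78 to 4.0). With 10 or more gate UMIs required, a band added after the data were seen, the counts were 25 and 207 cells and the log2 ratio 2.79 (2.19 to 3.45). Every cell was also thinned to 1000 UMIs, with shallower cells left out and the gate lowered to 1 UMI of its 4 genes and none of the NK and B cell genes, which took 39 of 10582 and 578 of 11733 cells (0.369% and 4.93%), a log2 ratio of 3.74 (3.27 to 4.25). This looser rule is not a T cell share, since it also took 0.103% and 2.07% of thinned cells with 3 or more endothelial UMIs and no Ptprc UMI, and 26 of the 39 and 265 of the 578 cells were in the gate at full depth. Those 26 and 265 cells, a count added after the data were seen, gave a log2 ratio of 3.20 (2.62 to 3.84).

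The order was the other way when only cells with the leukocyte gene Ptprc were counted. Ptprc, which encodes the common leukocyte antigen CD45, had a UMI in 1.81% and 31.7% of the kept cells, Cebpa fl/fl first, and in 25 of 26 and 290 of 319 T cells. Of the cells with a Ptprc UMI or in the T cell gate, T cells were 26 of 198 in the Cebpa fl/fl library, 13.1% (8.76 to 18.6), and 319 of 4161 in the CebpaΔSftpc library, 7.67% (6.88 to 8.52). The log2 ratio of these shares was −0.78 (−1.35 to −0.14). A single Ptprc UMI is no sure mark of a leukocyte, since it was also seen in 0.677% and 15.4% of cells with 10 or more endothelial UMIs, at median depths of 5328 and 5668 UMIs. With 3 or more Ptprc UMIs, which 0.0147% and 1.98% of those cells held, T cells were 26 of 98 and 319 of 1776, a log2 ratio of −0.56 (−1.14 to 0.07) that lies within counting error. The other lymphocytes were also a larger share of all CebpaΔSftpc cells, with a log2 ratio of 3.67 (2.49 to 5.15) for NK cells, 6 against 91, and of 2.80 (2.36 to 3.26) for B cells, 48 against 399. Whether the cells were sorted was not settled by these sources, so a share of the lung cannot be told apart from a share set by handling. More T cells in the lung, and fewer of the other cells in the sample, cannot be told apart either.

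The co-receptor genes divided the T cells into classes. Cd4 lies at chr6:124864692-124888221, and Cd8a and Cd8b1, the genes of the CD8 alpha and beta chains, lie at chr6:71373427-71379173 and chr6:71322788-71337494. Of the Cebpa fl/fl T cells, 8 held UMIs of Cd4 alone, 10 of Cd8a or Cd8b1 alone, 0 of both and 8 of neither. Of the CebpaΔSftpc T cells the counts were 54, 125, 2 and 138. The class with CD8 genes alone was therefore 38.5% (20.2 to 59.4) and 39.2% (33.8 to 44.8) of the T cells, and the class with Cd4 alone 30.8% (14.3 to 51.8) and 16.9% (13.0 to 21.5). In endothelial cells the Cd4 share was 0.0126% and 0.314% and the Cd8 share 0.0882% and 0.786%.

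The 2 co-receptors were almost mutually exclusive, and Cd8b1 was read more deeply than Cd4. T cells with Cd8b1 held a median of 8.5 and 7 of its UMIs and at most 18 and 20, whereas T cells with Cd4 held a median of 2.5 and 2 and at most 5 and 6. Cd8a and Cd8b1 were read together, with 8 of 10 Cebpa fl/fl cells holding UMIs of both and, among CebpaΔSftpc T cells, 93 holding both, 100 Cd8a and 120 Cd8b1. Cells with neither co-receptor were more frequent near the gate. In the CebpaΔSftpc library they were 70.5% of the 112 cells under 10 gate UMIs and 28.5% of the 207 at 10 or more, and their median depth was 5917.5 UMIs against 9048 for cells with Cd8 alone. In the Cebpa fl/fl library all 8 of them were at 10 or more gate UMIs.

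Among T cells with 1 of the 2 co-receptors, Cd4 marked 8 of 18 in the Cebpa fl/fl library, 44.4% (21.5 to 69.2), and 54 of 179 in the CebpaΔSftpc library, 30.2% (23.5 to 37.5). The intervals overlapped. After thinning of each T cell to 1000 UMIs, which left out 0 and 3 cells, the counts were 5 of 15 and 14 of 88, or 33.3% (11.8 to 61.6) and 15.9% (8.98 to 25.3), with overlapping intervals again. Cells with neither co-receptor after thinning were 11 of 26, 42.3% (23.4 to 63.1), and 228 of 316, 72.2% (66.9 to 77.0), apart beyond counting error and in step with the share of cells near the gate. A difference in the balance of Cd4 and Cd8 was not detectable with 26 T cells in the Cebpa fl/fl library.

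**Figure D2:**
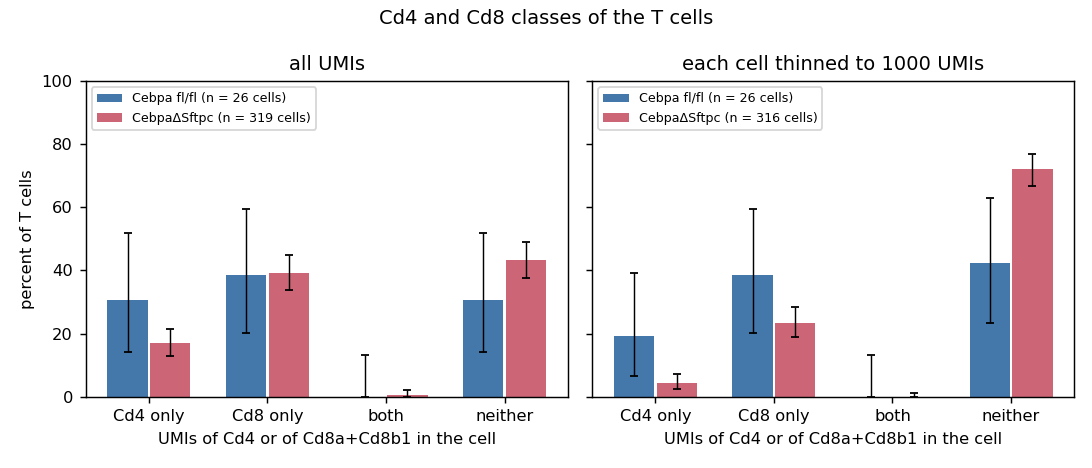
Bars give the percent of T cells in each co-receptor class per library, with all UMIs on the left and with each cell thinned to 1000 UMIs on the right, and the lines are exact 95% binomial intervals. The Cd8-only bars stand at 38.5% and 39.2% with all UMIs, and thinning moves CebpaΔSftpc cells from the Cd4-only and Cd8-only classes to neither.

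Few genes were 2-fold apart between Cd4-only and Cd8-only T cells in both libraries. Of 997 genes with at least 20 UMIs over the 2 classes in each library, 6 (0.602%) were at least 2-fold higher in Cd4-only cells in both libraries and 6 (0.602%) at least 2-fold higher in Cd8-only cells in both, while 392 had opposite signs in the 2 libraries. These counts were 1 and 3 without cells that held genes of other cell types, and 3 and 6 without the highest cell for each gene. The 6 on the Cd8 side were led by the chemokine gene Ccl5, with 10 UMIs in the 8 Cd4-only and 1215 in the 10 Cd8-only cells of Cebpa fl/fl lungs, and 119 and 4948 UMIs in those of CebpaΔSftpc lungs. Its log2 ratio of Cd4-only over Cd8-only was −6.69 and −4.21. In the Cebpa fl/fl library 919 of the 1215 UMIs lay in 1 cell and the 10 Cd4-only UMIs all in another. Without that Cd8-only cell the ratio was −4.83 (−5.91 to −3.93). Nkg7, a protein of cytotoxic granules, stood at −4.52 and −2.93, and Klrd1, which encodes the receptor chain CD94, at −2.82 and −2.32. For Ly6c2, a surface protein of memory CD8 T cells, the ratio was −3.10 in the CebpaΔSftpc library, and it had no UMI in Cd4-only cells of the Cebpa fl/fl library against 52 in Cd8-only cells. Dapl1, which naive CD8 T cells express, was at −3.09 and −1.0, and Dnajc15 at −1.52 and −1.33.

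On the Cd4 side stood Ctla4, an inhibitory receptor that is abundant in regulatory T cells, at 3.04 and 1.58 in the Cebpa fl/fl and CebpaΔSftpc libraries. It was seen in 5 of 8 Cd4-only and 2 of 10 Cd8-only Cebpa fl/fl cells. In the CebpaΔSftpc library like shares held it, 8 of 54 and 21 of 125. Cd5, a receptor that dampens T cell receptor signals, was at 2.37 and 1.41 and the integrin chain gene Itgb1 at 2.23 and 1.22. Igfbp4 was at 1.90 and 2.06, Ly6a at 1.31 and 1.41 and Ifi27l2a, an interferon-induced gene, at 1.12 and 1.01. A further 4 genes led this side with a smaller value under 2-fold in 1 library or both, Retreg1, S100a4, Nrip1 and Maf, and 4 led the other side likewise, Zfas1, Cmah, Bola2 and Kcnq1ot1. The Cebpa fl/fl values rest on 8 and 10 cells, in which 1 cell can hold most of a gene. Igfbp4 was seen in 2 of the 8 Cd4-only cells, and 1 of the 8 held 58 of their 88 Itgb1 UMIs.

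**Figure D3:**
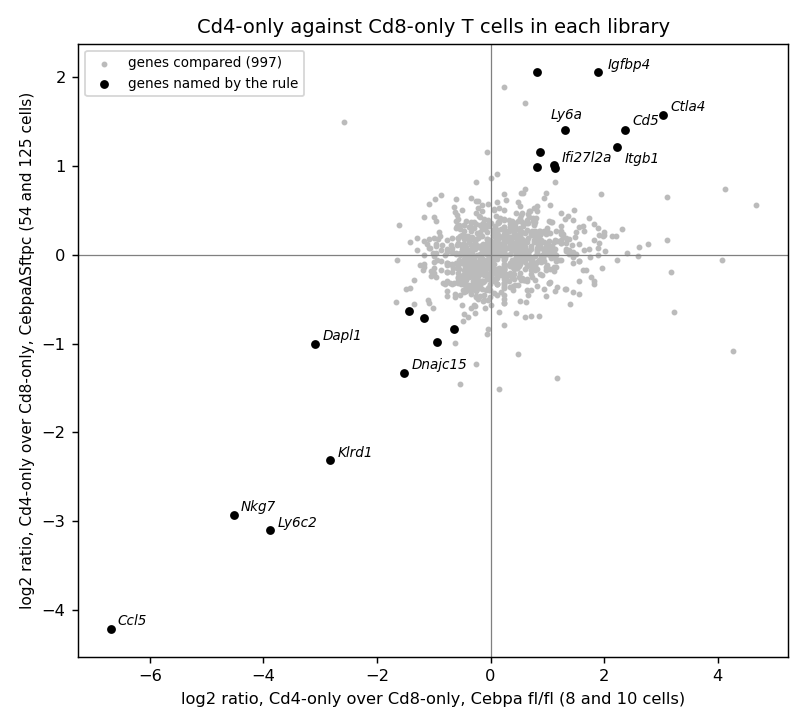
Each point is a gene, with its log2 ratio of Cd4-only over Cd8-only T cells in the Cebpa fl/fl library on the horizontal axis and in the CebpaΔSftpc library on the vertical axis. Grey points are the 997 genes compared and black points the 20 named by the rule, and Ccl5, Nkg7, Ly6c2 and Klrd1 lie far to the lower left.

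The lists of T cell states were summed in each class. Effector genes summed to 1761 CPM in Cd4-only, 18254 in Cd8-only and 4012 in cells with neither in the Cebpa fl/fl library, and to 1320, 6382 and 3613 CPM in the CebpaΔSftpc library. Of the 1513 effector UMIs in Cd8-only cells of Cebpa fl/fl lungs, 919 were Ccl5 in 1 cell, and without that cell the sum was 6182 CPM. Regulatory genes summed to 1179, 265 and 1480 CPM and to 784, 296 and 1009 CPM, and were thus lowest in Cd8-only cells of both. Naive genes summed to 5537, 4247 and 3494 CPM and to 4789, 4675 and 3893 CPM, so that the Cd4-only and Cd8-only sums of the CebpaΔSftpc library were close. The CebpaΔSftpc cells with neither co-receptor had Icos, a co-stimulatory receptor of activated T cells, at 340 CPM against 145 in Cd4-only cells, Cxcr6 at 215 against 38.3, and Gata3 at 171 against 61.2. Type 2 innate lymphoid cells also express Icos and Gata3, and their list summed to 240 CPM in cells with neither co-receptor against 111 in Cd4-only cells. Genes of AT2 cells summed to 926 against 151 CPM and those of NK cells to 650 against 513. Genes of gamma-delta T cells summed to 446 against 9.56 CPM, neutrophil genes to 4610 against 2274 and red cell genes to 1014 against 109. In each class 1 cell held most neutrophil UMIs, 3377 of 4037 and 1108 of 1189, and without it the sums were 773 and 159 CPM. Other lists were lower in the cells with neither co-receptor, with dendritic cell genes at 1031 against 2832 CPM, fibroblast genes at 799 against 1211, platelet genes at 36.5 against 423 and macrophage and monocyte genes at 2390 against 2584. Few Cd4-only cells held much of these sums. In that class 1 cell held 373 Dcn UMIs out of 633 fibroblast UMIs, and single cells held 432 and 224 of the 825 Cd74 UMIs. All 221 platelet UMIs lay in 8 of the 54 cells. The order of these lists therefore rests on few cells. Cells with neither held a median of 7 gate UMIs against 16.5, and the part of these other genes and cells was not tested.

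The promoters of Nkg7 and Ctla4 are printed as a gene from each side of this contrast, from RefSeq on GRCm38.p6 over the same 300 bases and with the same motifs in capitals (Nkg7 at chr7:43436888-43437187 and Ctla4 at chr1:60908775-60909074, both on the plus strand).
Nkg7: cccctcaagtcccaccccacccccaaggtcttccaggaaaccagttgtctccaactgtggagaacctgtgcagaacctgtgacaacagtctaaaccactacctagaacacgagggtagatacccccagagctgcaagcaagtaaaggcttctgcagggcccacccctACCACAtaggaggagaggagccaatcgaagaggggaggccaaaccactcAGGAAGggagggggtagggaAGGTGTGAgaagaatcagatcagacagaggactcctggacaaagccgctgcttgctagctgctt
Ctla4: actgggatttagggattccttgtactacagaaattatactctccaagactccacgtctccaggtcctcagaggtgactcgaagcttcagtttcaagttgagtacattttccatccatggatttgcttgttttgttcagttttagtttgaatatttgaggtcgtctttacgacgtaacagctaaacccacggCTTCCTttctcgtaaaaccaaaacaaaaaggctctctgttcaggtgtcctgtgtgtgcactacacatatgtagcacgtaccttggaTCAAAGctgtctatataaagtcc
The Nkg7 window held a RUNX match 83 bases before the start on the opposite strand, an ETS match at 34 and the T-box letters at 14. The Ctla4 window held an ETS match 59 bases before the start and a TCF/LEF match 28 bases into the transcript, both on the opposite strand. A match is a description of the letters, and binding was not measured.

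Cd8-only T cells fell into those with abundant Ccl5 and those with almost none, a split at 5 Ccl5 UMIs that was chosen after values were seen and is given without a test. In the CebpaΔSftpc library 52 of 125 cells were at or above it and 73 below, with Ccl5 at 10485 and 12.9 CPM, and in the Cebpa fl/fl library 6 of 10 and 4. Cxcr3, a chemokine receptor of effector T cells, was seen in 34 of the 52 Ccl5-high and 1 of the 73 Ccl5-low CebpaΔSftpc cells. Eomes, a T-box factor of memory and effector CD8 T cells, was seen in 26 and 5, the related Tbx21 in 12 and 1, and Klrk1, the activating receptor NKG2D, in 26 and 2. Nkg7 was at 1064 CPM and 282 CPM.

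The 12 genes of the naive list summed to 3624 CPM in Ccl5-high and 5383 CPM in Ccl5-low CebpaΔSftpc cells. All 12 were lower in the Ccl5-high cells, 4 of them 2-fold or more, and Il7r was nearly level at 839 and 883 CPM. In the Cebpa fl/fl cells the sums were 3136 and 5605 CPM, while Dapl1 was at 351 and 375 CPM and Il7r at 680 and 751. Of the 12 genes, 10 had a log2 ratio of Ccl5-high over Ccl5-low below 0, 4 of them 2-fold or more. Bach2 is among the 10 only because its 2 and 1 UMIs were each raised to 3, and its level was 43.9 and 26.8 CPM. Ccr7 was seen in 24 of the 52 Ccl5-high and 63 of the 73 Ccl5-low cells, and Satb1, a chromatin organiser of developing and naive T cells, in 27 and 67. The transcription factor gene Lef1 was at 161 and 374 CPM and Igfbp4 was seen in 8 and 31 cells. In the Cebpa fl/fl library Ccr7 was seen in 0 of 6 Ccl5-high and 4 of 4 Ccl5-low cells, and Igfbp4 in 0 and 4, the same order on few cells. Median depth was 8052 UMIs in Ccl5-high and 9306 in Ccl5-low CebpaΔSftpc cells. Endothelial cells with any Ccl5 UMI were 7.37% in the CebpaΔSftpc library and 0.844% in the other.

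Naive T cell genes were at like levels in the T cells of the 2 genotypes. The 12 genes of the naive list summed to 4437 and 4451 CPM, and none of the 12 was 2-fold apart. Of all 9340 genes with at least 20 UMIs in the T cells, 7.4% were at least 2-fold higher in the CebpaΔSftpc library and 3.99% at least 2-fold lower. These shares are the background for the counts of the lists below. With at least 50 UMIs, which all 12 naive genes had, they were 10.8% and 2.06% of 6416 genes. At such shares few of 12 genes would be 2-fold apart, so that count does not set the naive list apart from all genes. The naive list's median log2 ratio of CebpaΔSftpc over Cebpa fl/fl was 0.07, against −0.04 over all 9340 genes. Il7r stood at 731 and 936 CPM, a log2 ratio of 0.36 (0.13 to 0.60). Tcf7, a transcription factor of naive and memory T cells, stood at 398 and 401 CPM. Ccr7 was lower, at 343 and 243 CPM (−0.50, −0.85 to −0.13), and Klf2, which controls the exit of T cells from lymph nodes, was at 946 and 768 CPM (−0.30, −0.51 to −0.09).

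T cell receptor and signalling genes outside the gate were slightly lower in the CebpaΔSftpc T cells. Of the 18, 0 were 2-fold higher and 2, Cd5 and Cd4, were 2-fold lower, with a median log2 ratio of −0.49. Trbc2 stood at 1480 and 1004 CPM (−0.56, −0.73 to −0.39). Cd28, the co-stimulatory receptor, was at 384 and 243 CPM (−0.66, −0.99 to −0.31) and Lat, the adaptor that CD3 signals pass through, at 324 and 204 (−0.67, −1.03 to −0.29). Skap1 differed by less than its counting error, at 347 and 330 CPM. The share of cells near the gate, 112 of 319 against 1 of 26, went with these values, and its part in them was not tested.

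Effector genes were lower in sum in the CebpaΔSftpc T cells, and most of that sum was Ccl5 in few Cebpa fl/fl cells. The 20 genes of the effector list summed to 8681 and 4378 CPM, 2 of the 19 with 20 UMIs were 2-fold higher, 5 were 2-fold lower and the median log2 ratio was −0.19. Ccl5 had 1383 UMIs in 10 of 26 Cebpa fl/fl T cells, 919 of them in 1 cell, and 6206 in 108 of 319 CebpaΔSftpc T cells, or 6319 and 2397 CPM. Its log2 ratio was −1.40 (−1.48 to −1.31) and became 0.02 when the highest cell of each library was left out. Nkg7 likewise was at 713 and 337 CPM (−1.08, −1.33 to −0.82) and at −0.24 without the highest cells. The shares of T cells with a Ccl5 UMI were 38.5% (20.2 to 59.4) and 33.9% (28.7 to 39.3), which overlap.

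Single granzymes went different ways. Gzma, a granzyme of NK cells and some T cells, had 8 UMIs in 1 Cebpa fl/fl T cell and 300 in 23 CebpaΔSftpc T cells (1.66, 0.67 to 2.89), 223 of the 300 in 3 cells. Gzmk, a granzyme of memory CD8 T cells, had 10 UMIs in 4 and 33 in 13 cells (−1.84, −2.90 to −0.66). Gzmb had 6 UMIs in 3 and 34 in 17 cells (−1.06, −2.33 to 0.48), a difference within counting error. Cd44, an adhesion receptor that activated T cells raise, was at 86.8 and 152 CPM (0.81, 0.15 to 1.56). Ifng, the interferon-gamma gene, was at 22.8 and 20.5 CPM, and Prf1, which encodes perforin, at 36.6 and 27.4 CPM, both within counting error.

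Regulatory T cell genes were low in both libraries, and some members were lower in the CebpaΔSftpc T cells. Foxp3 was seen in 1 of 26 and 6 of 319 T cells, with 6 and 13 UMIs. Of the 14 listed genes 10 had 20 UMIs, of which 0 were 2-fold higher and 5 2-fold lower, and the median log2 ratio was −0.48. For 1 of the 5, Lrrc32, the interval held 0 (−1.02, −2.28 to 0.52). The median was −1.33 with no minimum of UMIs, 0.08 at a minimum of 50, 0.02 without the highest cells and 0.25 without T cells that held genes of other cell types, so the list had no stable direction. Ctla4 was seen in 10 of 26 and 52 of 319 T cells, at 219 and 55.2 CPM (−1.99, −2.47 to −1.49), and stayed lower, at −1.54, without the highest cell of each library. Izumo1r, the folate receptor 4 of regulatory T cells, was at 105 and 19.3 CPM (−2.44, −3.18 to −1.66). Ikzf2, which encodes Helios, was at 133 and 61.8 CPM (−1.10, −1.68 to −0.48) but at −0.45 without the highest cells, and Icos and Tnfrsf18 differed by less than counting error. All 6 CebpaΔSftpc cells with a Foxp3 UMI also held UMIs of Ctla4, Ikzf2 and Tnfrsf18, and 4 held Cd4. The Cebpa fl/fl cell with Foxp3 held 17 of the 48 Ctla4 UMIs and 12 of the 29 Ikzf2 UMIs of its library.

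**Figure D4:**
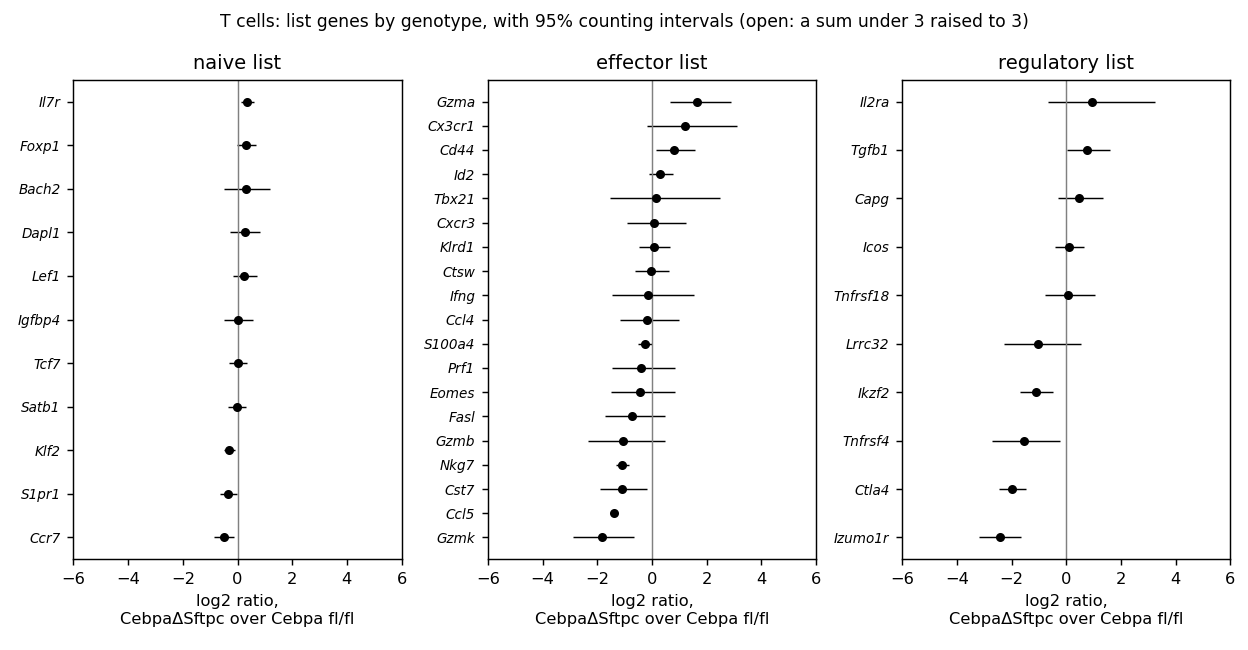
Points are log2 ratios of CebpaΔSftpc over Cebpa fl/fl T cells for genes of the naive, effector and regulatory lists with at least 20 UMIs, and lines are 95% intervals for counting error. The naive genes lie within −0.50 and 0.36, whereas Ccl5, Nkg7, Ctla4 and Izumo1r lie below −1 with intervals that leave out 0.

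A list of 8 genes known from lung-resident T cells was compared in the same way. Of these 8 genes, 7 had 20 UMIs, of which 2 were 2-fold higher and 0 lower, with a median log2 ratio of 0.61 and sums of 713 and 906 CPM. B cells had the same median over 5 genes, 0.61, with sums of 637 and 801 CPM, so nothing in this value was particular to T cells. Itga1, the integrin chain of CD49a, had 3 UMIs in 3 cells against 240 in 80 CebpaΔSftpc cells (2.76, 1.19 to 5.05). Endothelial cells held Itga1 at 924 and 741 CPM and B cells at 107 and 164 CPM, endothelial genes summed to 768 and 1459 CPM in the T cells, and their part in the Itga1 counts was not tested. Ahr, the aryl hydrocarbon receptor, was at 18.3 and 40.6 CPM (1.15, −0.25 to 3.05), within counting error. Cxcr6, a chemokine receptor that holds T cells in the airways, was at 54.8 and 98.9 CPM (0.85, 0.02 to 1.82). Itgae, the CD103 chain, had 0 UMIs against 54 in 33 cells, too few to tell from the depth of the Cebpa fl/fl T cells. Cd69 was at 279 and 212 CPM, within counting error, and Zfp683 had no UMI in either library.

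Chemokine receptors and integrins of migration were mixed, with 2 of 14 genes 2-fold higher and 2 2-fold lower, against 7.4% and 3.99% of all 9340 genes. Counts this small do not set the migration list apart from all genes. Ccr2, which guides cells to inflamed tissue, had 6 UMIs in 3 cells and 277 in 64 cells (1.96, 0.82 to 3.42). The level of Ccr2 was 0 and 29.2 CPM in B cells, 0.218 and 6.78 in endothelial cells and 489 and 179 in NK cells, and that of Cx3cr1 0 and 31.4, 0.24 and 4.72, and 163 and 121. Macrophage and monocyte genes summed to 242 and 1927 CPM in the T cells, and their part in these counts was not tested. The median log2 ratio of this list was 2.16 in endothelial, 0.24 in B and −0.43 in NK cells. Over all genes with at least 20 UMIs it was −0.01, 0.05 and −0.48 in the same order. In T cells the other gene on the higher side was Cx3cr1, at 1.22 (−0.18 to 3.12) with its 4 Cebpa fl/fl UMIs in 1 cell. Itgb1 was at 617 and 285 CPM (−1.12, −1.38 to −0.84), and at −0.40 without the highest cells. Of the helper cytokine and lineage list, 0 of the 8 genes with 20 UMIs were 2-fold apart, and Il5 and Il13 had no UMI in either library and Il4 had 0 and 3 UMIs. Gata3, the factor of type 2 helper T cells, was seen in 10 of 26 and 101 of 319 T cells. The inhibitory receptor list had 0 of 7 genes 2-fold higher and 2 2-fold lower, Pdcd1 and Lag3, which had 4 UMIs each in the Cebpa fl/fl T cells and intervals that held 0.

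Immediate early genes, which cells switch on within minutes of a signal or of tissue digestion, were higher in the CebpaΔSftpc T cells. Of 12 genes with 20 UMIs, 4 were 2-fold higher and 0 lower, with a median log2 ratio of 0.58, and the list summed to 5264 and 6791 CPM. Fos stood at 247 and 590 CPM (1.26, 0.87 to 1.68) although a like share of T cells held it, 19 of 26 and 232 of 319. Egr1 was at 64.0 and 206 CPM (1.68, 0.92 to 2.56), Zfp36 at 54.8 and 155 CPM (1.5) and Nr4a1, which T cell receptor signals induce, at 73.1 and 158 CPM (1.12). Junb was at 1846 and 2240 CPM (0.28, 0.13 to 0.43), and Jund went the other way at 1124 and 917 CPM (−0.29, −0.48 to −0.10), but at −0.02 without the highest cells. In B cells Fos was at 581 and 627 CPM, in endothelial cells at 269 and 328 CPM and in NK cells at 81.4 and 280 CPM, the first on 3 UMIs. The median log2 ratio of the list was 0.22 in NK cells, with 6 Cebpa fl/fl cells, 0.19 in B cells and 0.31 in endothelial cells. Over all genes with at least 20 UMIs it was −0.48, 0.05 and −0.01 in the same order. Whether the cell types differed was not tested. The Fos ratio was not stable, being −0.11 (−0.33 to 0.13) when 2 gate UMIs sufficed, a setting that took in 3 further Cebpa fl/fl cells.

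Of 12 interferon-induced genes 1, Ly6a, was higher past counting error and 0 were lower past it. The median log2 ratio was 0.48, against 0.44 over 12 genes in B cells, and 4 genes were 2-fold higher and 0 lower. These 4 were Irf7, Ifit1, Ifit3 and Rtp4, each with at most 3 UMIs in the Cebpa fl/fl T cells and an interval that held 0. Ly6a was at 238 and 357 CPM (0.59, 0.18 to 1.02).

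Few T cells held 2 or more UMIs of Mki67, a gene of dividing cells, though Stmn1 of the cell cycle list was more widespread. Stmn1 was seen in 12 of 26 Cebpa fl/fl and 72 of 319 CebpaΔSftpc T cells. At least 2 Mki67 UMIs were seen in 1 of 26 Cebpa fl/fl and 3 of 319 CebpaΔSftpc T cells. The Cebpa fl/fl one was a Cd4-only cell with 24705 UMIs and 4653 genes, the deepest T cell of its library. It held 914 of the 952 histone gene UMIs of all Cebpa fl/fl T cells, 29 of 29 Mki67 UMIs, 36 of 36 UMIs of the topoisomerase gene Top2a, and 244 of 260 UMIs of the cell cycle list. The genes lowest in CebpaΔSftpc relative to Cebpa fl/fl T cells were those this cell held, with Hist1h2ab at 54 and 13 UMIs (−5.62), Hist1h1b at 102 and 35 (−5.11), Pclaf at 40 and 15 (−4.98), then Hist1h2ae, Hist1h3e, Hist2h2ac, Hist1h2ap, Hist1h4d, Mki67 and Stmn1, from −4.71 to −2.64. Of the cell cycle list 9 of 10 genes were 2-fold lower.

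Over all genes with at least 50 UMIs in the T cells, 691 of 6416 (10.8%) were at least 2-fold higher in the CebpaΔSftpc library and 132 (2.06%) at least 2-fold lower, with a median log2 ratio of 0.13. At a minimum of 20 UMIs 691 were higher and 373 lower. The 691 could not change, since with Cebpa fl/fl sums under 3 raised to 3 no gene under 50 UMIs can be 2-fold higher. Without the highest cell of each library for each gene 1114 were higher and 46 lower. The summed T cells held 218864 UMIs against 2588760. Of the 691 genes, 256 had under 3 UMIs in the Cebpa fl/fl T cells, a level raised to 3 UMIs for the ratio, and of the 132, 29 had most of their Cebpa fl/fl UMIs in 1 cell. The minimum of 50 UMIs is met mainly through the deeper CebpaΔSftpc sum.

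The genes highest in the CebpaΔSftpc T cells were genes of other cell types. S100a9, a calcium-binding protein of neutrophils and monocytes, had 0 UMIs in the Cebpa fl/fl T cells and 3023 in 117 CebpaΔSftpc T cells, at least 85.2-fold higher against a floor of 3 UMIs over the group, and 84.4% of those UMIs lay in 3 cells. Its partner S100a8 had 1 and 2870 UMIs. Cd74, the invariant chain of MHC class II molecules, had 7 UMIs in 7 cells and 2518 in 178 cells (4.93, 3.88 to 6.24). The MHC class II genes H2-Aa, H2-Ab1 and H2-Eb1 had 3, 4 and 1 UMIs against 952, 1023 and 911, and the lipoprotein gene Apoe 2 against 722. Chil3, a chitinase-like protein of alveolar macrophages, had 0 against 603 UMIs and was at least 17.0-fold higher, the adaptor Tyrobp of myeloid and NK cells 0 against 565 and at least 15.9-fold higher, and the neutrophil gene Retnlg 0 against 502, at least 14.1-fold higher, in 15 cells.

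Most marker lists of other cells had members 2-fold higher in the CebpaΔSftpc T cells, whereas those of B, airway, type 2 innate lymphoid and AT2 cells had none. Because Cebpa fl/fl sums under 3 UMIs were raised to 3, a gene with few CebpaΔSftpc UMIs could not count as 2-fold higher. This held for Cd79b (22 UMIs) and Ebf1 (31) of the B cell list, and for Il1rl1 (44) and Hs3st1 (31) of the innate lymphoid list. The contrast between lists is thus partly set by this floor. All 9 macrophage and monocyte genes were 2-fold higher in the CebpaΔSftpc T cells, 8 of them past counting error and Cd68 not, with a summed level of 242 and 1927 CPM, and Lyz2 was the most abundant, at 137 and 1004 CPM. C1qa, C1qb, Csf1r, Mrc1, Chil3 and Fcer1g were at 0 UMIs in the Cebpa fl/fl T cells. All 5 neutrophil genes were 2-fold higher, 4 past counting error and Mmp9 not, summing to 4.57 and 2556 CPM, with S100a9 at 1168 CPM, and S100a9, Retnlg, Csf3r and Mmp9 at 0 in the Cebpa fl/fl T cells. Of the dendritic cell list 3 of 3 genes with 20 UMIs were 2-fold higher, 64.0 and 1745 CPM in sum, with Cd74 the most abundant, while the defining genes Flt3, Clec9a and Ccl17 were at 0 in the Cebpa fl/fl T cells and Xcr1 in both. Fibroblast genes (6 of 6 higher, 133 and 829 CPM, Mgp the most abundant), hemoglobin and red cell genes (4 of 4, 36.6 and 397 CPM, Hbb-bs the most abundant) and endothelial genes (3 of 7, 768 and 1459 CPM, Ramp2 and then Cldn5 the most abundant) went the same way. Of the NK list 3 of 5 were higher, 86.8 and 611 CPM in sum with Tyrobp the most abundant at 218 CPM, and of the platelet list 1 of 2, 18.3 and 108 CPM. Of the B cell list 0 of 3 genes were 2-fold apart, 119 and 143 CPM in sum, of the airway list 0 of 1, 169 and 268 CPM, and of the innate lymphoid list 0 of 3, 86.8 and 123 CPM. AT2 genes went the other way, with 3 of 5 2-fold lower and a sum of 854 and 399 CPM, led by Sftpc at 640 and 270 CPM.

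The shares of cells with such genes are given beside those of unrelated cells for S100a9, Chil3 and Sftpc. In the CebpaΔSftpc library S100a9 had a UMI in 36.7% of T cells (31.4 to 42.2), 40.4% of B cells, 38.5% of NK cells and 37.2% of endothelial cells, and in the Cebpa fl/fl library in 0% of T cells (0 to 13.2), 0% of B cells, 0% of NK cells and 0.907% of endothelial cells. Chil3 was seen in 43.9%, 36.3%, 33.0% and 37.0% of the 4 CebpaΔSftpc cell types. Sftpc was seen in 100% of Cebpa fl/fl T cells and 96.4% of endothelial cells, and in 44.2% and 39.8% in the CebpaΔSftpc library. Levels were less alike. Neutrophil genes summed to 2556 CPM in CebpaΔSftpc T cells, 315.5 in NK cells, 3148 in B cells and 566 in endothelial cells, and red cell genes to 397, 6681, 281 and 2234 CPM. Cd74, which B cells express, was at 973 CPM in T cells, 1071 in NK cells, 9377 in B cells and 1136 in endothelial cells. Median depths were 7795 UMIs in CebpaΔSftpc T cells and 3151 in endothelial cells, and the T cell and endothelial shares of S100a9 differed by less than counting error. Without T cells that held hemoglobin, macrophage or endothelial UMIs past fixed limits, 13 and 95 T cells were left, the log2 ratio of their shares was 2.61 (1.77 to 3.57), and 194 genes were 2-fold higher and 30 lower. The part of free RNA and of doublets in each single gene was not tested.

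**Figure D5:**
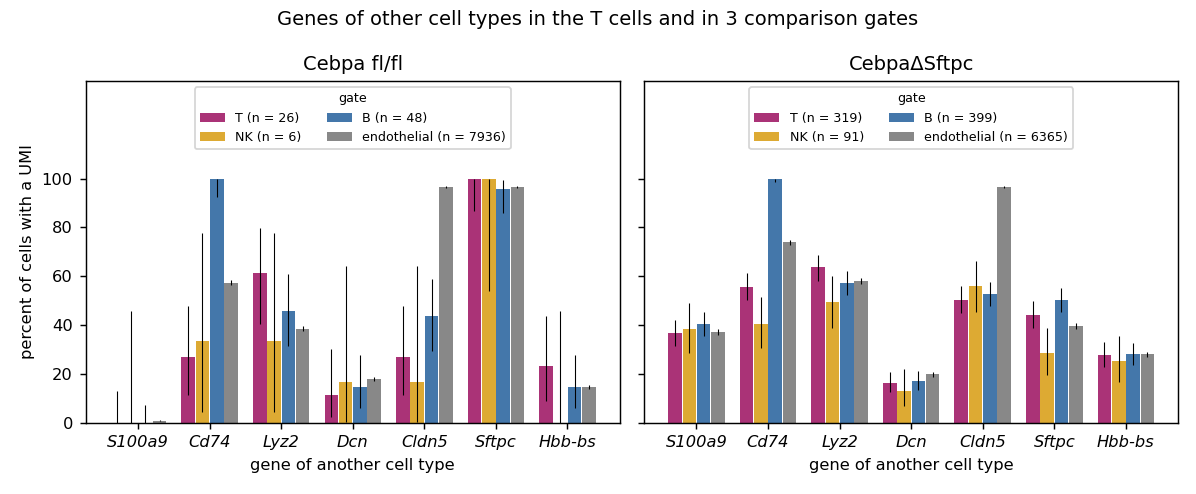
Bars give the percent of T, NK, B and endothelial cells with a UMI of 7 genes of other cell types in each library, and lines are exact 95% binomial intervals. S100a9 stands at 36.7% to 40.4% in all 4 CebpaΔSftpc cell types and at 0% to 0.907% in those of the Cebpa fl/fl library, and Sftpc stands at 100% and 44.2% of T cells.

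Transcripts of the gamma-delta receptor, another receptor pair of T cells, were seen within the gate. Trdc, the constant part of the delta chain, was seen in 1 of 26 Cebpa fl/fl T cells, 3.85% (0.0973 to 19.6), and in 30 of 319 CebpaΔSftpc T cells, 9.40% (6.44 to 13.2), against 0.0504% and 0.204% of endothelial cells. The intervals overlap. Of the 30 CebpaΔSftpc cells, 11 held Tcrg-C1, 15 Tcrg-C2 and 15 Tcrg-C4, constant parts of gamma chains, against 23, 24 and 12 of the 289 cells without Trdc. The scavenger receptor gene Cd163l1 was seen in 5 of the 30 and 3 of the 289. Trac was also seen in 20 of the 30, Trbc2 in all 30 at 1252 CPM against 976 CPM in cells without Trdc, Trbc1 in 16 and Cd8b1 in 10, so the 2 receptor types were not separate in these reads and the cells are not named gamma-delta T cells here. Ccl5 stood at 7009 CPM in cells with Trdc and 1866 CPM in those without.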

How the data were processed

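The authors deposited filtered 10x Genomics 3′ matrices of whole-number UMI counts per gene and cell, 1 per genotype, aligned to mm10. The submitters' processing notes name Cell Ranger 6.1.1 and the file header 5.0.0. How doublets were treated before deposit is not given in the sources used here. From these counts, cells were kept, as in the study, from 200 genes upward and up to 20% mitochondrial UMIs, and here from 800 UMIs, and T cells were chosen by the gate given above. No doublets were removed in the main analysis. Counts of T cells were summed per library and divided by their total (CPM). Ratios raise a sum under 3 UMIs to 3. The text names genes of fixed marker lists, the 10 highest and 10 lowest genotype ratios among genes with at least 50 UMIs and an interval that left out 0, and the 10 highest and 10 lowest Cd4-only over Cd8-only ratios of like sign in both libraries. The members, lists and cuts were chosen with earlier results of these data known. With 1 library per genotype no test between genotypes was run. Endothelial, NK and B cells were gated on marker UMIs. Intervals were computed with scipy 1.17.1 and tested on simulated counts, doublet scores with scanpy 1.11.5, in Python 3.11.15 (numpy 2.4.6, pandas 2.3.3). Promoters came from RefSeq on GRCm38.p6. Ccl5, Klrd1, Cd4, Cd8b1 and Trac are named without one. Alternatives changed the gate, depth, cell and gene filters, doublets, scaling and free RNA. A few genes of the lists are counted in the list summaries but not reported here by name.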

Additional observations from a re-analysis of the deposited data

Results flagged for a closer look

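Of 109 genes with enough UMIs to compare the genotypes separately in Cd4-only and Cd8-only T cells, 1 had intervals on opposite sides of 0. Jund, an AP-1 transcription factor gene, had a log2 ratio of CebpaΔSftpc over Cebpa fl/fl of -0.85 (-1.14 to -0.55) in Cd4-only cells, from 121 and 499 UMIs. In Cd8-only cells the ratio was 0.43 (0.03 to 0.87), from 51 and 972 UMIs. The difference between the classes was not tested, since each genotype is 1 library, and the Cebpa fl/fl values rest on 8 and 10 cells. Over all Cebpa fl/fl T cells 1 cell held 47 of 246 Jund UMIs, and without the highest cell of each library the ratio over all T cells was -0.02.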

How the results depend on the processing

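Of 119 alternative values of the main results 102 stayed within their interval or within 1.5 times a count, as did 377 of 432 for single genes. The log2 ratio of T cell shares was 2.61 without cells with genes of other cells and turned to -0.78 with cells holding a Ptprc UMI as the denominator and to -0.56 with cells holding 3. The CebpaΔSftpc share of Cd4 among cells with 1 co-receptor was 23.5% without cells with genes of other cells, 15.9% after thinning and 23.2% with 2 UMIs for a positive cell. Genes 2-fold higher numbered 194 without cells with genes of other cells, 443 at 100 UMIs and 1114 without the top cell of each gene. Genes 2-fold lower numbered 30, 41 and 46 in the same order and 373 at 20 UMIs. Genes 2-fold higher in Cd4-only cells of both libraries numbered 1 and in Cd8-only cells 3 without cells with genes of other cells, and in Cd4-only cells 3 without the top cell of each gene. The regulatory list median was -1.33 with no minimum of UMIs. Fos turned to -0.11 with a gate of 2 UMIs and Ccl5 to 0.018 without its top cell. The cause was not tested, beyond the fewer cells and genes that each setting leaves by construction. The Ptprc denominators, the gate of 10 UMIs and the removal of top cells were chosen after the data were seen. Doublet scores left 25 and 290 T cells, and a gate of 5 UMIs 26 and 265. The 26 Cebpa fl/fl T cells limit every comparison. No paired analysis was possible because each genotype has 1 library.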

Other observations

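Variable segments of the T cell receptor beta chain were read in 8 of 26 Cebpa fl/fl T cells, over 7 genes, and in 53 of 319 CebpaΔSftpc T cells, over 16 genes, of which Trbv13-2 was the most frequent, in 11 cells. With 3′ reads most receptor transcripts are counted at their constant part, so these counts are no measure of clones.

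Ighm, the immunoglobulin heavy chain gene, had a UMI in 42.3% of Cebpa fl/fl and 48.6% of CebpaΔSftpc T cells, against 0.416% and 8.28% of endothelial cells and 97.9% and 92.7% of B cells. Its level in T cells was 110 and 116 CPM, and 2351 and 5216 CPM in B cells. Cd79b had 0 and 22 UMIs in T cells, and Cd79a and Ms4a1 had none because the rule left out cells with them.

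NK cells, gated apart from T cells, held Trbc2 in 3 of 6 and 27 of 91 cells, and Ccl5 in 6 of 6 and 89 of 91. Their Ccl5 level was 9935 and 13409 CPM.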
